A study of Mus musculus with 4 samples.

Results

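Chromatin regulators with a described role in silencing or reactivating macrophage genes were followed through 4 RNA libraries, 8 genes in all. They are the histone H3K27 demethylases Kdm6b (JMJD3) and Kdm6a (UTX), the H3K27 methyltransferase Ezh2, the H3K9 methyltransferases Ehmt1 (GLP) and Ehmt2 (G9a), the deacetylase Hdac3 with its corepressor Ncor1, and the NAD-dependent deacetylase Sirt1. Gene rows were taken by symbol, and all 8 were found among the 55536 annotated genes. All 8 also passed the filter on low counts. The libraries hold polyA-selected RNA of bone-marrow-derived macrophages of C57BL/6J mice in 1 group of 4 biological replicates. Every culture had been exposed to 100 ng/ml lipid A for 12 h, left without it for 12 h and harvested at 0 min of a second exposure. Some label fields call the agent lipoprotein A. The sex and age of the mice were not collected. One donor identifier covers all replicates, and p-values therefore measure only how far these libraries spread. The group holds no untreated cells, and the values describe pretreated macrophages without saying what lipid A did to them.

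Lipid A is the part of bacterial endotoxin that the receptor TLR4 senses. Macrophages that have met endotoxin answer a second exposure with less induction of many inflammatory genes, a state called endotoxin tolerance. Promoters of such genes can gain the repressive marks H3K27me3 and H3K9me2, which Ezh2 and the Ehmt1/Ehmt2 pair write. Kdm6b and Kdm6a remove the first of these marks, and Kdm6b is known as a gene that endotoxin induces in mouse macrophages. The complex of Ncor1 and Hdac3 deacetylates histones at inflammatory genes, and Sirt1 has been described at silenced cytokine promoters in human monocytic cells.

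Replicates 3 and 4 were each made from 4 read files, against 6 for replicates 1 and 2, according to the deposited notes. Replicates 3 and 4 were therefore set against replicates 1 and 2 as a comparison of libraries, not of conditions, and what the read files reflect is not known. Gene counts totalled 48875472 and 57126810 in replicates 3 and 4, against 25594340 and 27384162 in replicates 1 and 2. Mitochondrial genes took 3.00 to 3.34% of counts in replicates 3 and 4, against 0.778 to 1.16% in replicates 1 and 2. An rRNA gene, CT010467.1, took 0.313 and 0.349% of TPM in replicates 3 and 4, against 8.49 and 1.01% in replicates 1 and 2, with replicate 1 apart. The part of either in the results was not tested. All 9 macrophage markers stood above 100 TPM on average (TPM, transcripts scaled within a library to a fixed total, a level per length). Between the pairs of libraries edgeR called 0 of them, with 2 at an unadjusted p below 0.05, while DESeq2 called 1 higher and 1 lower. Of all tested genes, edgeR called 5.8%, 28.5% had an unadjusted p below 0.05, and DESeq2 called 15.6%. The lists for T and NK cells, B cells, fibroblasts and erythroid cells summed to 0 to 0.8 TPM in every library, with the erythroid Hbb-bs at 0. The 5 dendritic markers summed to 2.12 to 2.98 TPM in replicates 3 and 4 and to 4.02 to 5.08 TPM in replicates 1 and 2. Neutrophil markers, of which Ly6g was at 0, summed to 78.5 and 6.96 TPM in replicates 3 and 4, against 89.4 and 14.0 TPM in replicates 1 and 2; this range does not follow the pairs, and its part in the results was not tested.

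By mean gene TPM, the corepressor stood at the top and the inducible demethylase at the bottom. Ncor1 averaged 133.5 ± 63.1 TPM (SD, n = 4 here and below), Ehmt2 66.7 ± 14.9, Kdm6a 32.3 ± 1.04, Hdac3 29.2 ± 6.53, Ehmt1 16.0 ± 7.96, Ezh2 10.5 ± 1.52, Sirt1 6.50 ± 1.40 and Kdm6b 4.26 ± 1.44 TPM. On complete coding models alone (protein-coding, with both ends annotated) the top place was that of Ehmt2, at 49.8 ± 9.18 TPM, above Ncor1, at 27.1 ± 4.36 TPM, in 4 of 4 libraries. Among 9797 protein-coding genes with at least 1 TPM in every library, Ncor1 lay above 89.8% and Kdm6b above 12.7%. Of the neighbours in this order, Ehmt2 over Kdm6a, Hdac3 over Ehmt1 and Ezh2 over Sirt1 held in 4 of 4 libraries. Ncor1 over Ehmt2 and Sirt1 over Kdm6b held in 3, while Kdm6a over Hdac3 and Ehmt1 over Ezh2 held in 2 and are not separated by these libraries. In bulk RNA, fewer cells of a kind and less RNA per cell cannot be told apart.

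**Figure D1:**
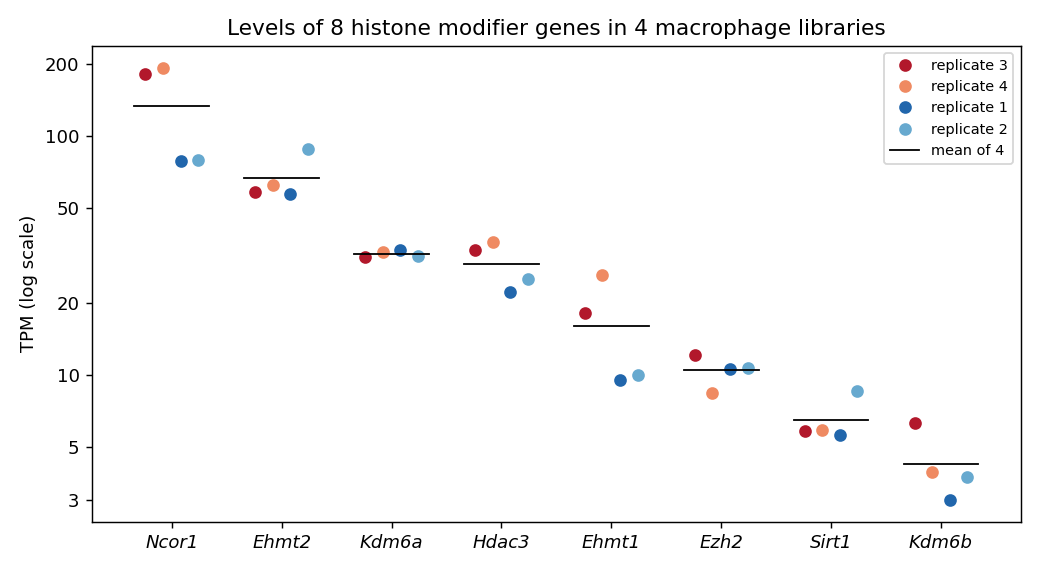
TPM of each gene (log scale) in replicates 3, 4, 1 and 2, left to right, with the mean of the 4 libraries as a line. Kdm6a spans only 31.2 to 33.3 TPM, whereas Ncor1 has 183 and 193 TPM in replicates 3 and 4, against 78.5 and 79.4 TPM in replicates 1 and 2.

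By gene counts, none of the 8 genes passed the test between replicates 3 and 4 and replicates 1 and 2. The edgeR quasi-likelihood test called 0 of 8 members at an adjusted p below 0.05, against 5.8% of all 11991 tested genes (696, of which 250 were higher and 446 lower in replicates 3 and 4). At an unadjusted p below 0.05 there were 2 of 8 members, Kdm6b and Ncor1, against 28.5% of all genes. DESeq2 called 0 of 8 members and 15.6% of all genes. The call of 696 genes rests on few libraries: it fell to 177 without replicate 1 and to 0 without replicate 3 or without replicate 4. The members' median log2 fold change was 0.10, beside -0.014 over all tested genes. The CPM (counts scaled to library size) of the pairs of libraries did not overlap for 7 of 8 members, which is read against 58.7% of all genes. The TPM did not overlap for 4 of 8 members, against 56.5% of all genes.

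**Figure D2:**
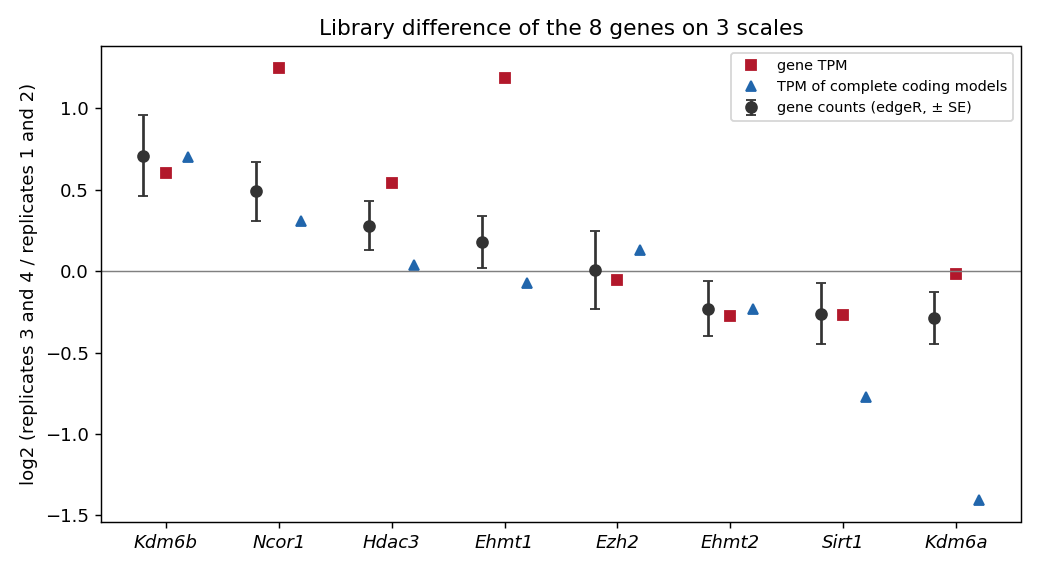
Log2 ratio of replicates 3 and 4 over replicates 1 and 2 for each gene, from gene counts (edgeR, bars are ± SE), from gene TPM, and from the TPM of complete coding transcript models. For Ncor1 and Ehmt1 the gene TPM (ratios of 2.38 and 2.28) lies far above the counts and the complete models, and for Kdm6a the complete models (ratio of 0.377) lie far below the gene TPM.

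Kdm6b, the catalytic H3K27 demethylase that inflammatory stimuli induce, was the least abundant member by mean gene TPM. In replicate 3, however, Sirt1 lay lower, at 5.87 TPM. On complete coding models the means were close, at 4.025 TPM for Kdm6b and 4.215 TPM for Sirt1. At chr11:69398508-69413675 (mm10, minus strand), Kdm6b had 6.33 and 3.95 TPM in replicates 3 and 4, against 3.01 and 3.76 TPM in replicates 1 and 2. In CPM it had 27.3 and 17.7 in replicates 3 and 4, against 13.2 and 13.3 in replicates 1 and 2. Replicate 3 stood apart from the other three, and the pairs did not overlap on either scale. The files' own TPM intervals, whose level they do not state, ran over 5.75 to 7.06 and 3.67 to 4.35 in replicates 3 and 4 and over 2.44 to 3.59 and 3.10 to 4.31 in replicates 1 and 2, so that replicates 4 and 2 overlapped. The log2 fold change was 0.71 (SE 0.25, edgeR adjusted p = 0.132). Without a filter on low counts the gene was called (edgeR adjusted p = 0.0114), and over all alternatives the adjusted p lay between 0.0114 and 0.480. A single complete coding model, Kdm6b-201 with 23 exons, held 95.0 and 100% of the TPM in replicates 3 and 4, against 91.4 and 89.7% in replicates 1 and 2. Kdm6bos, an antisense gene that overlaps Kdm6b, had at most 0.05 TPM.

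Kdm6a, the X-linked H3K27 demethylase that also belongs to the KMT2C/KMT2D complexes, had the steadiest TPM of the 8 in the RSEM-layout tables. The pairs of libraries differed in which models carried it. At chrX:18162575-18279936 (plus strand), it had 31.2 and 32.9 TPM in replicates 3 and 4, against 33.3 and 31.5 TPM in replicates 1 and 2, a coefficient of variation of 3.21%. In CPM it had 65.9 and 66.4 in replicates 3 and 4, against 86.6 and 70.1 in replicates 1 and 2, lower and without overlap. The count fold change was -0.29 (log2, SE 0.16, edgeR adjusted p = 0.277). The full-length coding model Kdm6a-201 (5918 bases, 29 exons) had 3.81 and 4.35 TPM in replicates 3 and 4, against 13.0 and 11.5 TPM in replicates 1 and 2. Kdm6a-208 (3219 bases), a coding model annotated without its 5′ end that covers exons 12 to 29 of Kdm6a-201 apart from exon 13, had 18.4 and 19.6 TPM in replicates 3 and 4, against 7.62 and 8.55 TPM in replicates 1 and 2. The pairs did not overlap for either model, which was also so in the second quantification (kallisto layout). It gave Kdm6a-201 3.11 and 3.56 TPM in replicates 3 and 4, against 8.20 and 7.73 TPM in replicates 1 and 2. It gave Kdm6a-208 18.5 and 19.1 TPM in replicates 3 and 4, against 6.62 and 7.76 TPM in replicates 1 and 2. The whole gene had 32.3 and 35.0 TPM there in replicates 3 and 4. It had 27.9 and 25.2 TPM in replicates 1 and 2, without overlap, so the gene TPM was less steady in that quantification. No test was run on transcript models, here or below.

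Exon 13 of Kdm6a-201, which Kdm6a-208 lacks, is a coding cassette exon of 135 bases at chrX:18246975-18247109, a whole number of codons. Kdm6a-208 also lacks exons 1 to 11, so the share of this exon largely restates the level of that model. It is shown because it is the coding stretch that Kdm6a-208 skips within the part both models cover, with the exon in capitals between 15 bases of each neighbouring exon (GENCODE M21 transcript, mm10, 5′ to 3′).
Kdm6a cassette exon of 135 bases: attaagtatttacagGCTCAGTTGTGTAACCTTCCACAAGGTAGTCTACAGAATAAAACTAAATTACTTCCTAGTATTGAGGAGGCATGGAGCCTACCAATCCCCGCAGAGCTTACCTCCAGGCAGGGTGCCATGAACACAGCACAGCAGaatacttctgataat
Models with this exon held 28.1 and 27.1% of the TPM of models that span it in replicates 3 and 4, against 57.7 and 57.3% in replicates 1 and 2. In the second quantification the shares were 29.9 and 31.6% in replicates 3 and 4, against 54.4 and 53.2% in replicates 1 and 2. A neighbouring coding exon of 156 bases, in no complete model, was held by 19.4 and 20.4% in replicates 3 and 4 and by 29.0 and 22.7% in replicates 1 and 2.

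Genes of the complex that Kdm6a belongs to were expressed by their mean TPM. All 10 listed members had a row and at least 1 TPM on average, led by Rbbp5, a core subunit, at 34.3 ± 9.23 TPM and by Kdm6a itself. The mean of Pagr1a, named after its values were seen, came mainly from replicate 1. This gene had 2.11 and 5.89 TPM in replicates 3 and 4, against 24.1 and 2.67 TPM in replicates 1 and 2. Its CPM were 0.450 and 0.955 in replicates 3 and 4, against 18.3 and 0.362 in replicates 1 and 2. By edgeR 1 of 10 was higher and 0 were lower in replicates 3 and 4 (5.8% of all genes were called), with 5 at an unadjusted p below 0.05 (28.5% of all genes) and a median log2 fold change of 0.03. DESeq2 called 2 higher, against 15.6% of all genes. They were Ncoa6 and Ash2l, of which Ash2l was named after its values were seen. Ncoa6, a nuclear receptor coactivator of the complex, had 30.6 and 32.9 TPM in replicates 3 and 4, against 20.5 and 21.4 TPM in replicates 1 and 2, with a log2 fold change of 0.84 (SE 0.16, edgeR adjusted p = 0.0440). Its fold change lay between 0.76 and 0.94 with any single library left out, but it was then not called, at adjusted p = 0.0667 without replicate 1, 0.0724 without replicate 2, 0.206 without replicate 3 and 0.242 without replicate 4 (edgeR). The range over all alternatives was 0.000681 to 0.242.

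Ezh2, the catalytic subunit of the polycomb complex PRC2 that writes H3K27me3, had a level of 12.2 and 8.47 TPM in replicates 3 and 4, against 10.6 and 10.8 TPM in replicates 1 and 2. The gene lies on chr6:47530139-47595341 (minus strand). The highest and the lowest value both came from replicates 3 and 4, and the count fold change was 0.01 (log2, SE 0.24, edgeR adjusted p = 0.989), with a sign that differed between settings. Of the complete models, 2 led. Ezh2-202, with 18 exons, had 5.47 and 4.36 TPM in replicates 3 and 4, against 2.71 and 2.26 TPM in replicates 1 and 2, without overlap. Ezh2-201, with 20 exons, had 4.04 and 1.98 TPM in replicates 3 and 4, against 3.91 and 4.23 TPM in replicates 1 and 2, with overlap.

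Of the exons that distinguish these models, one of 126 bases at chr6:47541845-47541970 (exon 14 of Ezh2-201) is skipped by Ezh2-202. It is shown because it is the coding stretch that separates the leading forms, again in capitals between 15 bases of its neighbours.
Ezh2 cassette exon of 126 bases: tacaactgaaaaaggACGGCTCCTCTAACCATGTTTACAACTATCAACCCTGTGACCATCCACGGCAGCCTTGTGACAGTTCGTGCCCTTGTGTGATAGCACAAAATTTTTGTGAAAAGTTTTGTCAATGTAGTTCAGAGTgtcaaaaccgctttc
It was held by 46.5 and 40.5% of spanning TPM in replicates 3 and 4, against 66.5 and 71.7% in replicates 1 and 2. In the second quantification it was held by 44.8 and 40.1% in replicates 3 and 4, against 49.5 and 66.6% in replicates 1 and 2. The pairs did not overlap in either, although the gap was narrow in the second.

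The PRC2 list, in which Ezh2 was chosen along with its partners, showed no call by edgeR. All 11 genes were expressed, led by Eed, the subunit that binds H3K27me3, at 65.6 ± 24.3 TPM and the histone chaperone Rbbp7 at 64.9 ± 6.16 TPM. The edgeR test called 0 of 11 (5.8% of all genes), with 3 at an unadjusted p below 0.05 (28.5% of all genes). The median log2 fold change was -0.18. DESeq2 called 1 of 11, against 15.6% of all genes. It was Jarid2, a PRC2 cofactor named after its values were seen, which had 6.39 and 6.09 TPM in replicates 3 and 4, against 7.51 and 7.97 TPM in replicates 1 and 2 (log2 fold change -0.75, SE 0.17, edgeR adjusted p = 0.0580). Ezh1, the alternative catalytic subunit that dominates in resting cells, stood above Ezh2 in 4 of 4 libraries, with a log2 ratio of Ezh2 over Ezh1 of -1.30 and -2.01 in replicates 3 and 4 and of -0.94 and -1.14 in replicates 1 and 2. A set of 10 cell cycle genes, with which Ezh2 is known to vary, had a summed level of 362.9 and 282.5 TPM in replicates 3 and 4, against 470.9 and 278.9 TPM in replicates 1 and 2. They were led by the replication clamp Pcna (265.6 ± 68.3 TPM) and the mitotic kinase Cdk1 (27.0 ± 7.44 TPM). By edgeR and by DESeq2 0 of 10 were called (5.8 and 15.6% of all genes). An unadjusted p below 0.05 was seen for 0 (28.5% of all genes).

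In gene TPM the eraser Kdm6a exceeded the writer Ezh2 within every library, and Kdm6b lay below both. The log2 ratio of TPM, with a pseudocount of 1, averaged 1.54 ± 0.23 for Kdm6a over Ezh2, -1.16 ± 0.32 for Kdm6b over Ezh2 and -2.70 ± 0.40 for Kdm6b over Kdm6a. All 9 gene pairs that were compared kept their sign in 4 of 4 libraries. With 4 libraries an exact two-sided sign-flip permutation test cannot go below p = 0.13, which was the value of each pair before and after Benjamini-Hochberg adjustment over the 9 pairs. On complete coding models alone, the order of Kdm6a and Ezh2 was turned round in replicates 3 and 4: Kdm6a had 5.84 and 5.22 TPM and Ezh2 10.2 and 7.33 TPM in replicates 3 and 4, while Kdm6a had 14.97 and 14.34 TPM and Ezh2 8.08 and 7.98 TPM in replicates 1 and 2. On the same models 6 of the 9 pairs kept their direction in 4 of 4 libraries. The other exceptions were single libraries: Kdm6b, at 6.02 TPM, lay just above Kdm6a in replicate 3, and Hdac3, at 21.6 TPM, just above Ncor1, at 20.9 TPM, in replicate 2.

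Ehmt1, the GLP subunit of the H3K9 methyltransferase pair, had a higher TPM in replicates 3 and 4 with a smaller difference in counts. The gene lies on chr2:24789928-24919614 (minus strand). It had 18.2 and 26.4 TPM in replicates 3 and 4, against 9.56 and 10.01 TPM in replicates 1 and 2, without overlap. In CPM it had 25.4 and 30.1 in replicates 3 and 4, against 24.1 and 23.0 in replicates 1 and 2, also without overlap but with a ratio of means of 1.18 in place of 2.28, and the log2 fold change was 0.18 (SE 0.16, edgeR adjusted p = 0.490). Ehmt1-214, an incomplete model of 671 bases that lies wholly within exons of the full-length Ehmt1-210 (5953 bases), had 7.30 and 13.1 TPM in replicates 3 and 4 and was at 0 in replicates 1 and 2. It took 8.37 and 12.4% of the gene's counts but 40.1 and 49.6% of its TPM in replicates 3 and 4. The complete models together had 5.63 and 6.27 TPM in replicates 3 and 4, against 5.68 and 6.85 TPM in replicates 1 and 2. These ranges overlapped. In the second quantification the complete models had 6.729 and 6.88 TPM in replicates 3 and 4. They had 4.831 and 5.803 TPM in replicates 1 and 2, lower and without overlap, so the quantifications disagreed on these models.

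Ehmt2, the G9a subunit, was the most abundant listed gene of H3K9 methylation by mean TPM. In replicate 3 Trim28 stood level with it, at 58.4 TPM. At chr17:34898469-34914052 (plus strand), Ehmt2 had 58.2 and 62.7 TPM in replicates 3 and 4, against 57.3 and 88.7 TPM in replicates 1 and 2. Replicate 2 stood above the other three, and the pairs overlapped on this scale. The log2 fold change of counts was -0.23 (SE 0.17, edgeR adjusted p = 0.415) and 0.04 with offsets for GC content and length. Ehmt2 exceeded Ehmt1 in every library, with a log2 ratio of Ehmt1 over Ehmt2 of -1.63 and -1.22 in replicates 3 and 4, against -2.46 and -3.03 in replicates 1 and 2. On complete coding models alone this ratio was -2.78 and -2.72 in replicates 3 and 4, against -2.76 and -3.04 in replicates 1 and 2. There the pairs overlapped.

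Each of the 2 methyltransferases has a coding cassette exon that is exon 9 of a complete model, 138 bases in Ehmt1 (chr2:24852665-24852802, minus strand) and 102 bases in Ehmt2 (chr17:34905610-34905711, plus strand). They are shown together, each in capitals between 15 bases of its neighbours, because they are alike: a stretch of 32 bases, from base 66 of the Ehmt1 exon and base 36 of the Ehmt2 exon, aligns without a gap at 25 bases.
Ehmt1 cassette exon of 138 bases: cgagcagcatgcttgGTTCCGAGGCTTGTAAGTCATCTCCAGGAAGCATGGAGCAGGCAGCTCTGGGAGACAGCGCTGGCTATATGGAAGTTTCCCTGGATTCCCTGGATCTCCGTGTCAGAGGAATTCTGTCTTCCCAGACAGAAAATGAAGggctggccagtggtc
Ehmt2 cassette exon of 102 bases: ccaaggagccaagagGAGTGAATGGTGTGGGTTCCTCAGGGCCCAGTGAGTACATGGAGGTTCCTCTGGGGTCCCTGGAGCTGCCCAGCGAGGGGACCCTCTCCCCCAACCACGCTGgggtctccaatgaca
In the RSEM-layout tables the Ehmt2 exon varied least of those described, held by 73.6 and 75.1% of spanning TPM in replicates 3 and 4 and by 76.2 and 76.7% in replicates 1 and 2. In the second quantification it was held by 77.2 and 77.4% in replicates 3 and 4 and by 84.3 and 86.0% in replicates 1 and 2. The Ehmt1 exon was held by 41.6 and 32.3% in replicates 3 and 4, against 94.3 and 100% in replicates 1 and 2, and by 51.7 and 36.2% in replicates 3 and 4, against 95.6 and 100% in replicates 1 and 2, in the second quantification. Only 2 models skip the Ehmt1 exon, one of them the short Ehmt1-214, so this share and the level of that model are the same observation.

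Ehmt2 has 2 RefSeq promoter entries, and the models that start at them did not keep the same ratio between libraries. Ehmt2-204 and Ehmt2-202 start within 100 bases of the upstream site, and Ehmt2-201 and Ehmt2-203 within 100 bases of the downstream one. The 250 bases before each start are shown (RefSeq, GRCm38.p6, plus strand, chr17:34898224-34898473 and chr17:34898720-34898969), with the hexamer GGGCGG, the core of an Sp1 site, in capitals on either strand.
Ehmt2 promoter 1: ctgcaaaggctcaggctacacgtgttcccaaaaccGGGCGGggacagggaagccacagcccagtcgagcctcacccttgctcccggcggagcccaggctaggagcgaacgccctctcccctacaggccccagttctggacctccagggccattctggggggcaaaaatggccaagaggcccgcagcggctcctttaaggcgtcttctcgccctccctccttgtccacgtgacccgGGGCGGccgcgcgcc
Ehmt2 promoter 2: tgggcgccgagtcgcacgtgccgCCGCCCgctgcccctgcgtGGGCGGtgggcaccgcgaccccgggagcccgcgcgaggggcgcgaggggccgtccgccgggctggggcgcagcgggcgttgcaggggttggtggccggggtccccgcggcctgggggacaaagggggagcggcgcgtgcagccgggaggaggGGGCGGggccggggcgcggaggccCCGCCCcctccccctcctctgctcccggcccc
The first holds the hexamer 2 times and the second 4 times, and 35.7% of 32851 RefSeq windows of 300 bases hold it at least once on either strand. The 300-base windows have 70.3 and 82.7% GC, against a median of 52.7% over all windows, and neither holds TATAAA on either strand, which 13.6% of all windows do. Models of the upstream start had 41.3 and 43.9 TPM in replicates 3 and 4, against 26.8 and 39.7 TPM in replicates 1 and 2. Models of the downstream start had 3.31 and 3.10 TPM in replicates 3 and 4, against 17.5 and 23.8 TPM in replicates 1 and 2. The downstream start thus took 5.69 and 4.95% of the Ehmt2 TPM in replicates 3 and 4, against 30.6 and 26.8% in replicates 1 and 2, and in the second quantification 5.66 and 4.66% in replicates 3 and 4, against 37.9 and 29.9% in replicates 1 and 2. The quantifications disagreed on the gene as a whole: in the second, Ehmt2 had 68.8 and 81.2 TPM in replicates 3 and 4, against 39.5 and 64.2 TPM in replicates 1 and 2. There a short retained-intron model, Ehmt2-209, held 19.9 and 32.3 TPM in replicates 3 and 4, against 0.0524 and 1.35 TPM in replicates 1 and 2, while the RSEM layout gave it 1.14 and 0.53 TPM in replicates 3 and 4, against 0.01 and 1.29 TPM in replicates 1 and 2.

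**Figure D3:**
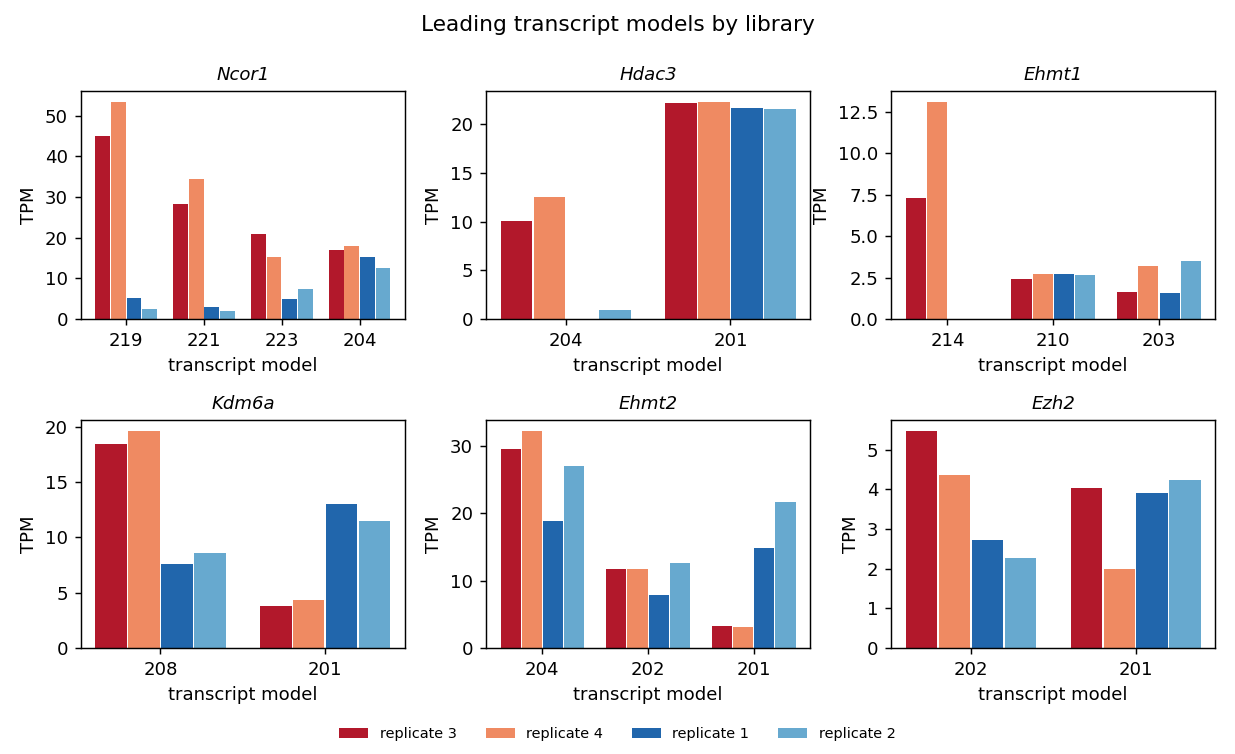
TPM of the leading transcript models of 6 genes (linear scale from 0, bars for replicates 3, 4, 1 and 2 from left to right). The short models Ncor1-219, Hdac3-204 and Ehmt1-214 stand at 45.1 and 53.4, 10.1 and 12.5, and 7.30 and 13.1 TPM in replicates 3 and 4, while the complete Hdac3-201 stays between 21.6 and 22.2 TPM in all 4 libraries.

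Of the 12 listed genes of H3K9 methylation, 11 had at least 1 TPM on average. The list was led by Ehmt2 and by Trim28, the KAP1 scaffold that recruits Setdb1, at 51.4 ± 8.79 TPM. The edgeR test called 0 of 12, beside 5.8% of all genes, with 3 at an unadjusted p below 0.05 (28.5% of all genes). DESeq2 called 0 (15.6% of all genes), and the median log2 fold change was 0.16. The 10 H3K9 demethylases were led by Jmjd1c, a member of the KDM3 group, at 29.97 ± 3.50 TPM and Kdm4a at 26.9 ± 5.28 TPM. Of these, 0 were called by edgeR or DESeq2 (5.8 and 15.6% of all genes), and 0 had an unadjusted p below 0.05 (28.5% of all genes). Their median log2 fold change was 0.07.

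Ncor1, the nuclear receptor corepressor that holds and activates Hdac3, was the most abundant member by gene TPM, though not by complete coding models, and also differed more in gene TPM than in gene counts. The gene lies on chr11:62316426-62458541 (minus strand) and has 25 annotated models. It had 183 and 193 TPM in replicates 3 and 4, against 78.5 and 79.4 TPM in replicates 1 and 2. In CPM it had 258 and 257 in replicates 3 and 4, against 197 and 158 in replicates 1 and 2. The pairs did not overlap on either scale, with a ratio of mean TPM of 2.38 and a ratio of mean CPM of 1.45. The log2 fold change of counts was 0.49 (SE 0.18, edgeR adjusted p = 0.148), between 0.35 and 0.65 over the alternatives.

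Most of the excess in TPM lay in 3 short models annotated as retained introns, a class of transcripts that keep intron sequence and are not given a coding frame. Ncor1-219 had 45.1 and 53.4 TPM in replicates 3 and 4, against 5.25 and 2.58 TPM in replicates 1 and 2. Ncor1-221 had 28.4 and 34.4 TPM in replicates 3 and 4, against 3.11 and 2.07 TPM in replicates 1 and 2. Ncor1-223 had 20.9 and 15.2 TPM in replicates 3 and 4, against 4.86 and 7.32 TPM in replicates 1 and 2. Together they took 11.3 and 12.2% of the Ncor1 counts but 51.7 and 53.3% of its TPM in replicates 3 and 4, and 2.18 and 1.98% of counts and 16.8 and 15.1% of TPM in replicates 1 and 2. All other models together had 88.3 and 90.4 TPM in replicates 3 and 4, against 65.3 and 67.5 TPM in replicates 1 and 2. The full-length Ncor1-204 (8852 bases, 45 exons) had 16.9 and 17.9 TPM in replicates 3 and 4, against 15.2 and 12.6 TPM in replicates 1 and 2.

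These short models are almost wholly made of exons of Ncor1-204, so few bases tell them apart. Ncor1-219 (643 bases) touches exons 37 to 40 and has 19 bases outside them, Ncor1-221 (800 bases) touches exons 29 to 31 and has 13, and Ncor1-223 (667 bases) touches exons 38 to 41 and has 29. In each the extra bases are the first of the model, and they are shown in capitals, followed by 30 bases of the exon (chr11:62330895-62330943, chr11:62344859-62344901 and chr11:62330110-62330168, mm10, minus strand).
Ncor1-219 first bases: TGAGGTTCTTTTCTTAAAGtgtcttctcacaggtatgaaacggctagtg
Ncor1-221 first bases: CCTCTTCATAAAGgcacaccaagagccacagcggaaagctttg
Ncor1-223 first bases: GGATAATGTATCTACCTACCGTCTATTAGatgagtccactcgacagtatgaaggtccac
Reads that fall elsewhere in these models lie equally in Ncor1-204 and are shared out by the authors' quantification, and the second quantification gave 40.7 and 48.5 TPM for Ncor1-219 in replicates 3 and 4, against 4.37 and 7.80 TPM in replicates 1 and 2.

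A microexon of Ncor1 had shares that overlapped between the pairs of libraries in one quantification and not in the other. It is a coding exon of 27 bases at chr11:62403436-62403462, annotated in 1 model, and is shown as the smallest of the cassettes considered, in capitals between 15 bases of its neighbours.
Ncor1 cassette exon of 27 bases: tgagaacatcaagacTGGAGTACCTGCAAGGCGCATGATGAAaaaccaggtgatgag
It was held by 28.5 and 28.1% of spanning TPM in replicates 3 and 4 and by 24.4 and 32.6% in replicates 1 and 2. In the second quantification the shares were 30.7 and 29.7% in replicates 3 and 4, against 37.2 and 40.4% in replicates 1 and 2, without overlap. Of the 2 RefSeq start sites of Ncor1, the one at which Ncor1-204 starts had models with 29.4 and 32.0 TPM in replicates 3 and 4, against 23.9 and 21.9 TPM in replicates 1 and 2. The other, further upstream, had 4.68 and 5.84 TPM in replicates 3 and 4, against 4.09 and 3.92 TPM in replicates 1 and 2.

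**Figure D4:**
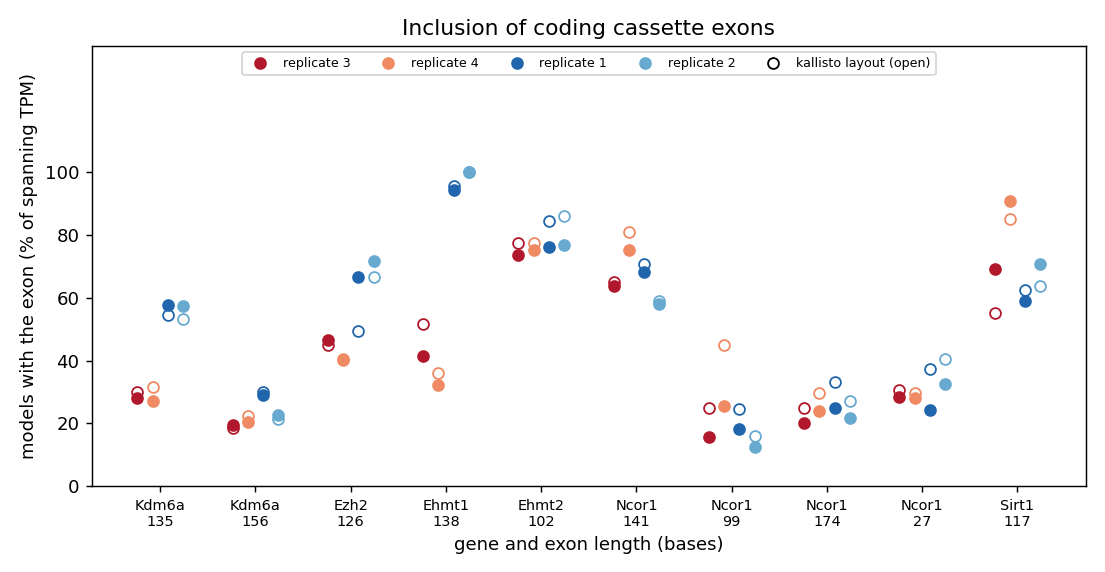
Share of the TPM of spanning models that holds each coding cassette exon, named by gene and length, in replicates 3, 4, 1 and 2 from left to right (filled points; open points are the kallisto-layout tables). The Ehmt2 exon of 102 bases stays between 73.6 and 76.7%, and the Kdm6a exon of 135 bases lies at 27.1 to 28.1% in replicates 3 and 4 and at 57.3 to 57.7% in replicates 1 and 2.

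Hdac3, the class I deacetylase that the corepressor complex activates, had a steady coding transcript while its gene TPM varied. At chr18:37935844-37955016 (minus strand), it had 33.3 and 36.1 TPM in replicates 3 and 4, against 22.2 and 25.4 TPM in replicates 1 and 2, and the pairs did not overlap. The log2 fold change of counts was 0.28 (SE 0.15, edgeR adjusted p = 0.274). Its only complete coding model, Hdac3-201, had 22.1 and 22.2 TPM in replicates 3 and 4, against 21.6 and 21.6 TPM in replicates 1 and 2, a coefficient of variation of 1.56%. Hdac3-204, a retained-intron model of 1040 bases with 800 bases in exons of Hdac3-201, had 10.1 and 12.5 TPM in replicates 3 and 4, against 0 and 0.97 TPM in replicates 1 and 2. In the kallisto-layout tables Hdac3-201 was less steady, at 21.05 and 21.25 TPM in replicates 3 and 4, against 15.6 and 15.8 TPM in replicates 1 and 2.

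**Figure D5:**
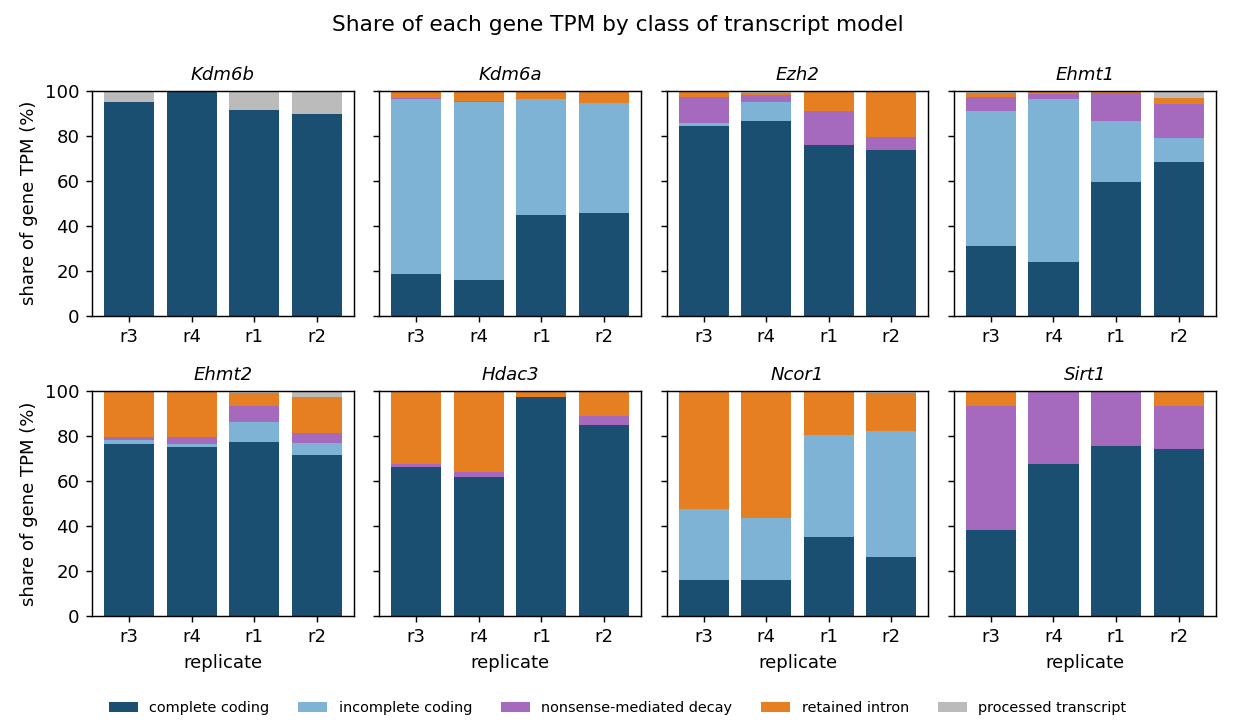
Share of each gene's TPM by annotated class of transcript model, in replicates 3, 4, 1 and 2 from left to right. Retained-intron models make up 52.7 and 56.3% of Ncor1 in replicates 3 and 4, against 19.0 and 17.1% in replicates 1 and 2, and complete coding models make up 66.3 and 61.7% of Hdac3 in replicates 3 and 4, against 97.3 and 85.1% in replicates 1 and 2.

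Complete coding models held a smaller share of TPM in replicates 3 and 4 for 5 of the 7 members with a mean of at least 5 TPM. The difference in that share was -36.6 percentage points for Ehmt1, -27.9 for Kdm6a, -27.2 for Hdac3, -22.4 for Sirt1 and -14.7 for Ncor1, against 1.39 for Ehmt2 and 10.5 for Ezh2. Kdm6b, below that level, had 95.0 and 100% in replicates 3 and 4, against 91.4 and 89.7% in replicates 1 and 2. The background was 7316 protein-coding genes of at least 5 TPM that have models of different classes. Over these genes the median difference was -0.067 points, 51.4% had a negative one, and 21.3% were lower by more than 10 points. No test was made of the members against these genes. The second quantification gave a lower share for 6 of the 7: the difference was -40.7 points for Ehmt1, -30.2 for Hdac3, -22.4 for Kdm6a, -18.5 for Ehmt2, -6.05 for Ncor1 and -3.48 for Sirt1, against 18.2 for Ezh2. Ehmt2 thus changed sign between the quantifications. The Sirt1 value of the RSEM layout came mainly from replicate 3, at 38.0%, beside 67.4% in replicate 4, against 75.8 and 74.4% in replicates 1 and 2. Over the same 7316 genes the second quantification had a median difference of 0.295 points, with 44.8% of genes below zero and 16.5% lower by more than 10 points.

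The corepressor complex was expressed in full. All 6 listed genes had at least 10 TPM on average, led by Ncor1. By gene TPM the log2 ratio of Hdac3 over Ncor1 was -2.42 and -2.39 in replicates 3 and 4, against -1.78 and -1.61 in replicates 1 and 2. On complete coding models alone it was much smaller in size, at -0.38 and -0.46 in replicates 3 and 4, against -0.33 and 0.04 in replicates 1 and 2. By edgeR and by DESeq2 0 of 6 were called (5.8 and 15.6% of all genes), and 2 had an unadjusted p below 0.05 (28.5% of all genes). Their median log2 fold change was 0.42. Among 13 other deacetylases and corepressors, of which 12 were tested, Sin3b, a scaffold of the Sin3 complex, had 91.9 ± 15.2 TPM and Hdac1 62.8 ± 4.07 TPM. Hdac3 stood below Hdac1 in 4 of 4 libraries, with a log2 ratio of -1.10 ± 0.25. By edgeR 0 of these 12 were called (5.8% of all genes), and 5 had an unadjusted p below 0.05 (28.5% of all genes). Their median log2 fold change was -0.33. DESeq2, which called 15.6% of all genes, called Hdac2 higher and Hdac7 lower, both named after their values were seen.

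Sirt1, the NAD-dependent deacetylase, was low in all libraries. The gene lies on chr10:63319005-63381704 (minus strand). It had 5.87 and 5.92 TPM in replicates 3 and 4, against 5.61 and 8.59 TPM in replicates 1 and 2. Replicate 2 stood above the other three, and the pairs overlapped in TPM. The log2 fold change of counts was -0.26 (SE 0.19, edgeR adjusted p = 0.410). The complete model Sirt1-201 had 1.12 and 3.58 TPM in replicates 3 and 4, against 2.28 and 4.01 TPM in replicates 1 and 2. Sirt1-205, annotated as a target of nonsense-mediated decay, had 3.26 and 1.93 TPM in replicates 3 and 4, against 1.36 and 1.63 TPM in replicates 1 and 2, and took 55.5% of the gene in replicate 3, or 28.7% in the second quantification. Sirt1-202 lacks exon 2 of Sirt1-201, a coding cassette of 117 bases (chr10:63336980-63337096, minus strand), shown in capitals between 15 bases of its neighbours because it separates the complete forms.
Sirt1 cassette exon of 117 bases: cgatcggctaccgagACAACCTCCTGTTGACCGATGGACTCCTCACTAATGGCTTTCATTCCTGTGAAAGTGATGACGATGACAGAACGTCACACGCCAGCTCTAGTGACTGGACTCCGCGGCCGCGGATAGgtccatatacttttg
The exon was held by 69.1 and 90.7% of spanning TPM in replicates 3 and 4 and by 59.1 and 70.6% in replicates 1 and 2, overlapping ranges. Sirt1 had 637 and 833 counts in replicates 3 and 4, against 331 and 524 in replicates 1 and 2.

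Sirt1 stood well below the cytosolic sirtuin Sirt2 and the enzyme that feeds sirtuins with NAD. Sirt2 had 106.8 ± 25.9 TPM and Nampt, the rate-limiting enzyme of NAD salvage, 181.1 ± 36.6 TPM. The log2 ratio of Sirt1 over Sirt2 was -3.83 ± 0.41, the largest of the 9 pairs in size. Of 12 sirtuin and NAD genes, 0 were called by edgeR or DESeq2 (5.8 and 15.6% of all genes). An unadjusted p below 0.05 was seen for 3 (28.5% of all genes), and the median log2 fold change was -0.31. In a list of 8 genes of histone acetylation, which acts opposite to deacetylases, the acetyltransferase Kat5 had 39.9 ± 13.2 TPM. Of these 8, edgeR called 0 (5.8% of all genes), with 2 at an unadjusted p below 0.05 (28.5% of all genes). DESeq2 called 2, Kat5 among them, against 15.6% of all genes.

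For each member the gene of most similar level was sought among 82 candidates of the chromatin lists, by the root mean square difference of log2(TPM + 1) over 4 libraries. This measure does not compare patterns apart from the level. Hdac3 lay nearest to Ezh1 (0.05), Kdm6a to Ep300 (0.08), Sirt1 to Sirt3 (0.12), Ezh2 to Kdm7a (0.20), Ehmt2 to Hdac1 (0.28), Kdm6b to Nmnat3 (0.37), Ehmt1 to Wiz (0.46) and Ncor1 to Sirt2 (0.50). Ezh1 had 31.4 and 37.1 TPM in replicates 3 and 4, against 21.3 and 25.1 TPM in replicates 1 and 2, values close to those of Hdac3 in every library. These are descriptions over libraries that share a treatment and differ in depth.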

How the data were processed

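RNA was measured in 4 polyA libraries. Per the deposited notes, the authors quantified all tables on mm10 with GENCODE M21; the programs and their versions: not given in the sources used here. Expected counts and TPM of genes and transcripts, with the isoform percentage per transcript, were deposited by the authors in the column layout of RSEM. A second quantification, estimated counts and TPM, was deposited in the layout of kallisto. Per the file headers, counts carry no normalization and TPM are scaled within a library. Transcript TPM are estimates: reads shared by models are divided between them.

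The 8 members and all lists were chosen with earlier results of these data known. Gene rows were joined to GENCODE M21 (55536 genes). Left out were 97 spike-in rows and 26248 rows of tRNA and other entries. Levels are TPM. After rounding, expected counts went through filterByExpr (minimum count 10), TMM and the quasi-likelihood test of edgeR 4.0.16 under R 4.3.3, with a Benjamini-Hochberg threshold of 0.05; DESeq2 1.42.0 was an alternative. The edgeR step was tested on simulated data. A floor of 3 counts corresponds to 0.0525 to 0.117 CPM, for counting error only. Pairs were compared as log2((TPM + 1)/(TPM + 1)). Complete coding models are protein-coding models without missing ends; an exon's inclusion is the TPM of models that hold it over that of models that span it. Cassette exons with a mean inclusion of 10 to 90% and at least 3 spanning TPM were considered. Of the members, 6 had a RefSeq promoter entry; Kdm6b and Hdac3 had none. Named genes were the members, the 2 most abundant and the called genes of each list, both genes of a pair, each member's nearest gene, and transcripts with a mean share of at least 20% or the highest mean TPM; Ncor1-221, Ncor1-223, Hdac3-204, Ehmt2-209, the models shown in the plots and other genes were named after their values were seen. Some genes that this rule names are not reported here. Figures were drawn with matplotlib 3.10.9 and tables made with pandas 2.3.3 on Python 3.11.15; numpy was 2.4.6 and scipy 1.17.1.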

Additional observations from a re-analysis of the deposited data

Results flagged for a closer look

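The TPM of Sirt1 in replicate 2, at 8.59, lies far from the other libraries, which had 5.87 and 5.92 TPM in replicates 3 and 4 and 5.61 TPM in replicate 1. The gap to the nearest library was 0.896 of the whole range, above Dixon's critical value for 4 samples. In the kallisto-layout tables replicate 2, at 8.42 TPM, stood nearer to replicates 3 and 4, at 7.42 and 7.49 TPM, with replicate 1 at 5.43 TPM, and the widest gap was 0.665 of the range, below the critical value. Among 33 sets of 4 values examined in this way, 1 was found, and chance alone gives about 1 in 20.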

How the results depend on the processing

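The mean ratio of all 9 gene pairs kept its direction with the kallisto-layout TPM. It also did so with complete coding models alone, an alternative chosen after seeing the data. There 6 of 9 pairs kept their direction in every library. Kdm6a over Ezh2 shrank to 0.11, and Hdac3 over Ncor1 from -2.05 to -0.28. The other alternatives, a smaller pseudocount and subsets of the libraries, could not reverse a mean, because each pair had the same sign in 4 of 4 libraries. The difference in the complete coding share of Ehmt2 reversed to -18.5 points in the kallisto-layout tables. The count of genes called between replicates 3 and 4 and replicates 1 and 2 was 696; it was 2569 without a filter on low counts and 1866 with DESeq2, and 0 to 671 when one replicate was left out. The other settings moved it by less than 1.5 times. The count of members called was 0, and 1 without the filter (Kdm6b). The fold change of Ezh2 reversed to -0.08 with the kallisto-layout counts and to -0.10 with GC and length offsets, and lay between -0.28 and 0.25 when one replicate was left out. The fold change of Ehmt2 reversed to 0.04 with GC and length offsets. The cause was not tested. The TPM of 7 of the 8 genes moved by more than 1 SD when complete coding models alone were summed. No paired analysis was possible because the series has 1 group. With 4 libraries no exact p can go below 0.13, and transcript models that share nearly all their bases are separated by few reads.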
